A study of Aspergillus fumigatus with 12 samples.

Results

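Of the 10276 genes in the deposited tables, 105 were lower with each of a pair of added compounds and lower again with both together. They were found by a rule on group means of log2(FPKM + 1), where FPKM is the fragment count scaled to gene length and library size. The rule first kept the 7216 genes with a mean over all 12 libraries from 5 to under 1000 FPKM. It then asked for 4 differences of at most -0.5 log2 units: P2R minus CK, SA minus CK, P2R+SA minus P2R and P2R+SA minus SA. The members are 1.46% of that abundance window. Since the rule used these differences, their sizes and the calls they give are a description of how the members were chosen, not a finding.

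RNA was sequenced from mycelium in 4 groups of 3 libraries. P2R+SA was basic medium with the dye Ponceau 2R and sinapic acid, P2R was basic medium with the dye, SA was basic medium with sinapic acid, and CK was basic medium alone. All groups were strain X-13, which the series title names as Trametes hirsuta and the samples' organism field as Aspergillus fumigatus. The labels give no compound dose, and whether the libraries within a group stem from separate cultures is not stated there.

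Trametes species are white-rot fungi, which live on wood and secrete oxidative enzymes such as laccases and peroxidases. These enzymes act on lignin and also on many synthetic dyes. Ponceau 2R is a red azo dye, a molecule whose colour depends on a nitrogen-nitrogen double bond between aromatic rings. Sinapic acid is a phenolic compound of plants with a structure close to that of lignin's building blocks, and small phenols of this kind can act as electron carriers for laccase. The question behind the series is what sinapic acid does to transcription while the fungus decolorizes the dye. The tables give IDs without gene names or products, and 0 of the 105 members matched the RefSeq gene table at hand, which covers 10086 genes of Aspergillus fumigatus. The members can therefore not be grouped by function here, and a pair of them is given by ID.

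The libraries held 35919373 to 39408704 fragments in the listed genes, recovered from the FPKM values. The fewest fragments behind any member in any library were 5, and 7 members had a library with fewer than 30. No member was at 0 in a library. Per the design text every group was taken at 48 h, but the column header in each library's own file carries a 48 for P2R+SA and SA and a 36 for P2R and CK. The P2R+SA headers also carry a separate 4, whose meaning is not given. If this number is a time in hours, the difference of SA from CK, of P2R+SA from CK and of P2R+SA from P2R cannot be told apart from time, while P2R against CK and P2R+SA against SA stay within 1 number. SA replicate 1 and P2R+SA replicate 1 stood apart from the other libraries of their groups among the members, as given below.

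The members were at similar levels with either compound alone and lowest with both. The median member had 11.4, 7.11 and 6.91 FPKM in the 3 P2R+SA libraries, 19.6, 21.9 and 19.7 FPKM in P2R, 12.1, 27.0 and 24.0 FPKM in SA, and 55.3, 55.5 and 72.1 FPKM in CK. SA replicate 1 was thus nearer to the P2R+SA libraries than to the other SA libraries, and the P2R and CK libraries each lay close together. Together the members took 0.332 ± 0.0705% of all fragments in P2R+SA, 0.849 ± 0.0275% in P2R, 0.787 ± 0.262% in SA and 1.95 ± 0.11% in CK (SD, n = 3 each). In bulk mycelium, fewer cells that express a gene and less of its RNA per cell cannot be told apart.

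**Figure D1:**
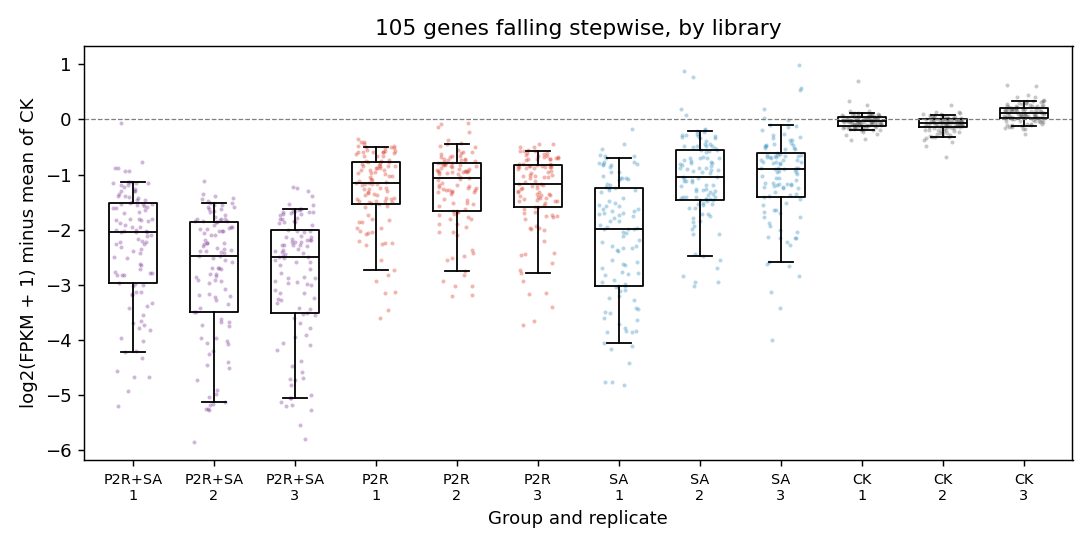
Difference of each of the 105 genes from its CK mean, in log2(FPKM + 1) units (y axis), in each of the 12 libraries (x axis, group and replicate). Points are genes, boxes give the quartiles with the median, and whiskers run from the 5th to the 95th percentile; the median is -2.04 in P2R+SA replicate 1 and -1.98 in SA replicate 1, against -1.05 and -0.90 in SA replicates 2 and 3.

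Over the members, the median difference from CK was -2.31 log2 units in P2R+SA, -1.10 in P2R and -1.24 in SA. On the FPKM + 1 scale these medians correspond to levels 4.95-fold, 2.15-fold and 2.36-fold lower. The median difference of P2R+SA was -1.26 from P2R and -0.99 from SA. Over all 9240 genes tested (those reaching 1 FPKM in at least 3 libraries), the medians were -0.11 for P2R+SA against CK, -0.09 for P2R against CK, -0.04 for SA against CK, -0.03 for P2R+SA against P2R and -0.06 for P2R+SA against SA. The scale of log2(FPKM + 1) understates differences of low genes, and 35 members averaged under 5 FPKM in P2R+SA, against 0 members in CK.

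The number of members called differed between the comparisons. In limma's test over all 12 libraries and all 9240 genes, with a Benjamini-Hochberg adjusted p under 0.05, all 105 members were called lower in P2R+SA than in CK, where 24.7% of all genes were. The count was 77 for P2R against CK, with 16.3% of all genes called lower, and 78 for SA against CK, with 9.84%. It was 73 for P2R+SA against P2R, with 11.3% of all genes, and 50 for P2R+SA against SA, with 3.16%. All 105 members were among the genes tested. At an unadjusted p under 0.05 the counts lay close together, at 95 for P2R against CK, 93 for SA against CK, 95 for P2R+SA against P2R and 96 for P2R+SA against SA. Of all 9240 genes, 2327, 1689, 1757 and 1390 were lower at that unadjusted p in the same comparisons. The rule set the same limit on all 4 steps, so the close counts are partly fixed by the choice of members. A lower count for P2R+SA against SA was seen at the adjusted threshold and not at the unadjusted one. Its cause was not tested. The model took 1 spread per gene over all groups, so a gene had the same SE in each of these comparisons. The members' median SD of log2(FPKM + 1) was 0.63 in SA and 0.34 in P2R+SA, against 0.18 in P2R and 0.14 in CK. The adjusted count for P2R+SA against SA moved most with the libraries used: leaving out P2R+SA replicate 2 gave 17, P2R+SA replicate 3 gave 21, SA replicate 2 gave 32 and SA replicate 3 gave 29, and the count was 89 without SA replicate 1 and 3 with the 6 compared libraries alone. The adjusted count for P2R against CK was 51 without CK replicate 3. With only the 6 compared libraries, counts were 104 for P2R against CK, 65 for SA against CK and 86 for P2R+SA against P2R. Shares of all genes called are not given for these alternatives, so shifts in members and in all genes cannot be told apart. Of the 4 steps of the rule, 38 members were called in all, 23 in 3, 25 in 2, 7 in 1 and 12 in none. Nothing is read from these counts, since the same libraries chose the members.

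The members differed in how cleanly the groups separated. Every P2R+SA library lay below every CK library for 104 members, as it did for 32.1% of all genes tested. Every P2R library lay below every CK library for 102 members (36.3% of all genes), and every SA library below every CK library for 92 (24.2%). Every P2R+SA library lay below every P2R library for 93 members (20.5%). P2R+SA and SA overlapped most often: the groups were apart for 58 members (10.9% of all genes) and overlapped for 47. In all 4 steps the libraries were apart for 47 members, against 1.61% of all genes. Without SA replicate 1 this count was 77, without P2R+SA replicate 1 it was 80, and without both it was 90. With fewer libraries fewer overlaps are possible, so part of these gains is by construction. The share of all genes without these libraries is not given.

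In 13 members an SA library was at or above the lowest CK library. This was SA replicate 2 in 9 members and SA replicate 3 in 8, and SA replicate 1 in 0. SA replicate 2 exceeded every CK library in 2 members and SA replicate 3 in 3.

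A08811, with a coding length of 1914 bp, had the lowest P2R+SA minus CK difference among the members. It was measured at 13.9, 3.84 and 3.99 FPKM in P2R+SA, 57.6, 47.6 and 44.6 FPKM in P2R, 19.3, 46.4 and 122 FPKM in SA, and 275, 267 and 290.0 FPKM in CK. The P2R+SA and CK libraries were apart from all others, while the SA libraries spread on both sides of P2R. The means were 7.23 ± 5.75 FPKM in P2R+SA, 49.9 ± 6.82 FPKM in P2R, 62.7 ± 53.4 FPKM in SA and 277 ± 11.7 FPKM in CK (SD, n = 3 each). Its mean in P2R+SA was 38.3-fold lower than in CK, with a log2 difference of -5.29 (SE 0.55, limma). The log2 difference was -2.46 for P2R against CK and -2.50 for SA against CK, each with an SE of 0.55. P2R+SA differed from P2R by -2.83 and from SA by -2.79 log2 units, with the same SE. The difference from SA was called (limma adjusted p 0.0139), but not in 3 of 21 alternatives.

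A00361, with a coding length of 936 bp, had the highest CK level of the members. It was measured at 242, 116 and 68.6 FPKM in P2R+SA, 868, 653 and 852 FPKM in P2R, 193, 406 and 496 FPKM in SA, and 2378, 2293 and 2009 FPKM in CK. Here the SA libraries all lay below the P2R libraries, and SA replicate 1 lay below P2R+SA replicate 1. The means were 142 ± 89.8 FPKM in P2R+SA, 791 ± 120 FPKM in P2R, 365 ± 155 FPKM in SA and 2227 ± 194 FPKM in CK (SD, n = 3 each). Its log2 difference was -4.15 for P2R+SA against CK, -1.50 for P2R against CK and -2.71 for SA against CK, each with an SE of 0.41 (limma). The P2R+SA difference was -1.44 log2 units from SA and -2.65 from P2R, with the same SE. The difference from SA was not called (limma adjusted p 0.0585), and it was called in 4 of 21 alternatives. P2R against CK was called (limma adjusted p 0.0187), but not in 3 of 21 alternatives.

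**Figure D2:**
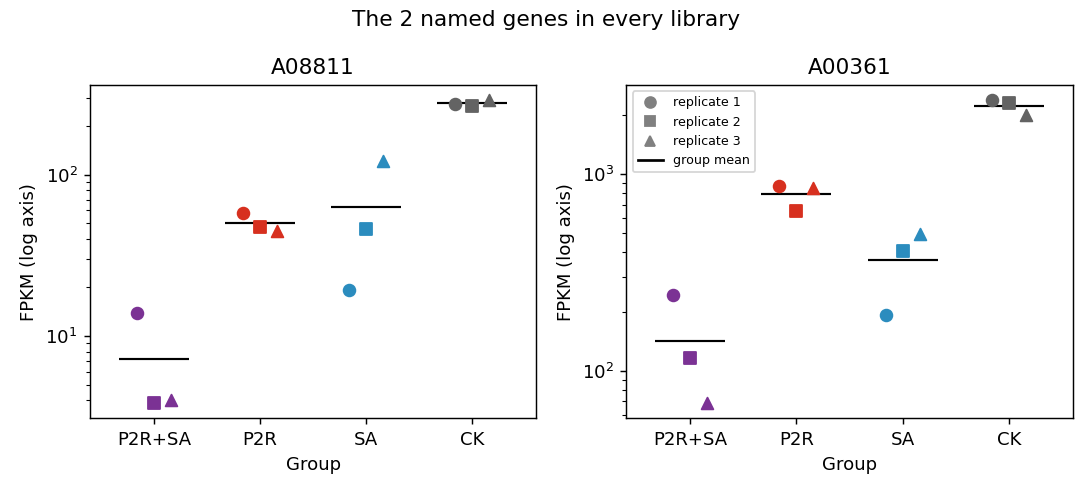
FPKM (y axis, log scale) of A08811 (left) and A00361 (right) in every library, by group (x axis). Symbols mark the replicate number and lines the group mean; in A00361 the SA libraries (193 to 496 FPKM) lie below the P2R libraries (653 to 868 FPKM), and in A08811 the SA libraries (19.3 to 122 FPKM) span the P2R libraries (44.6 to 57.6 FPKM).

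The sum of the single differences was set against the joint difference. The interaction takes the SA minus CK difference off the P2R+SA minus P2R difference, and on the log2 scale a value of 0 means that the single differences add up. Its median over the members was 0.01, with quartiles of -0.16 and 0.33 and a range from -1.82 to 2.12. Over all 9240 genes tested the median was also 0.01, with quartiles of -0.22 and 0.23, so a value near 0 was not particular to the members. Among them it lay within 0.5 of 0 for 77 members, at or under -0.5 for 10 and at or over 0.5 for 18. It was above 0, a joint difference smaller than the sum, for 56 members, and below 0 for 49. The 18 members at or over 0.5 had median single differences of -1.86 in P2R and -2.06 in SA. The 10 members at or under -0.5 had medians of -1.15 in P2R and -1.0 in SA, and single members departed from these medians in both subsets. The limits of the rule keep out genes whose joint difference is not beyond the single ones, so these values are partly fixed by the choice of members. They are also built from shared CK libraries.

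In limma's test of the interaction, 2 members passed with a positive value, where 0.455% of all 9240 genes did, and 0 passed with a negative value, where 0.693% did. At an unadjusted p under 0.05 there were 5 positive and 2 negative members, against 692 positive and 658 negative genes of all 9240. The 2 members had interactions of 1.83 (SE 0.35) and 2.12 (SE 0.28). Their differences from CK were -4.93 and -3.78 in P2R+SA, -3.13 and -3.0 in P2R, and -3.62 and -2.89 in SA. With a pseudocount of 0.1, a replicate block, no filter on low values or limma-voom, and without any 1 of the P2R or CK libraries or P2R+SA replicate 3, 1 member passed with a positive value. Leaving out SA replicate 1 together with P2R+SA replicate 1, 2 members passed with a positive and 11 with a negative interaction, against 113 and 229 of all genes.

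**Figure D3:**
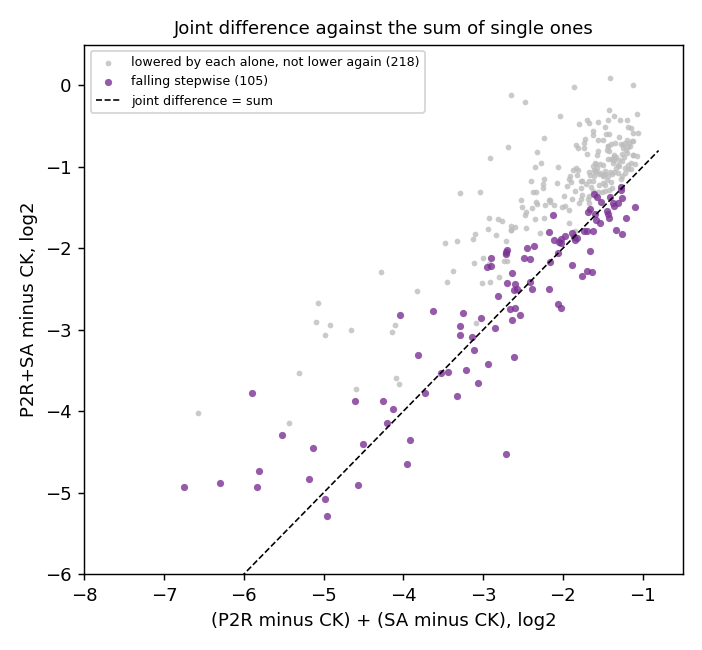
P2R+SA minus CK (y axis) against the sum of P2R minus CK and SA minus CK (x axis), all in log2(FPKM + 1) units. Purple points are the 105 members, grey points the 218 genes of the abundance window that were lower by at least 0.5 with each compound alone but not lower again by at least 0.5 in both further steps, and the dashed line marks a joint difference equal to the sum; the members lie along the line, and the limits of the rule place the grey points above it.

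The dye's difference without sinapic acid (P2R minus CK) and with it (P2R+SA minus SA) come from separate libraries. Across the 105 members Pearson's r between them was 0.67 and Spearman's rho 0.65. SA minus CK and P2R+SA minus P2R, also from separate libraries, had an r of 0.71 and a rho of 0.67. Both of these differences set libraries with a 48 in the header against libraries with a 36. Whether a time difference shared by them enters this r was not tested. The correlations are descriptions across genes, all of which the rule held at or under -0.5 in each step. The dye's difference was smaller with sinapic acid than without it in 56 members and larger in 49. This repeats the sign of the interaction given above and is no further observation.

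The SA minus CK difference was the larger in 66 members and P2R minus CK in 39, and this order rested on SA replicate 1. Without that library SA minus CK was the larger in 46 members and P2R minus CK in 59. The header number differs between SA and CK but not between P2R and CK. If it is a time, the compound and time cannot be told apart in SA minus CK. The subsets that follow use all libraries. For 74 members the single differences lay within 0.5 of each other. In 22 members the SA difference was larger by 0.5 or more, with medians of -1.91 in SA and -0.98 in P2R. In these members all SA libraries lay below all CK libraries for 22 of 22, and all P2R+SA libraries below all SA libraries for 8. In 9 members the P2R difference was larger by 0.5 or more, with medians of -2.19 in P2R and -1.23 in SA. Of those 9, all SA libraries lay below all CK libraries for 4, and all P2R+SA libraries below all SA libraries for 8. A group picked for a small single difference leaves more room for the further step, so the contrast between these subsets follows in part from how they were picked.

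The joint difference was at or under -4 log2 units for 15 members, between -4 and -3 for 16, between -3 and -2 for 36 and above -2 for 38. The 15 deepest had mean levels of 0.738 to 142 FPKM in P2R+SA, with a median of 7.30, and of 49.0 to 2227 FPKM in CK, with a median of 179. The 38 shallowest had medians of 8.67 FPKM in P2R+SA and 29.6 FPKM in CK. The subsets thus ended at like levels in P2R+SA and differed in CK. Median coding length was 750 bp in the 15 deepest members, 1167 bp in the next 16, 1546 bp in the 36 after them and 1450 bp in the 38 shallowest. The levels in CK enter the rule, while coding length does not.

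The difference of P2R+SA from SA was small between the libraries numbered 1. SA replicate 1 was the lowest SA library in 91 of 105 members, against 27.0% of all genes tested. The rule used the SA mean, so a low SA replicate 1 helps a gene to meet the SA minus CK limit. The count of 91 is thus partly fixed by the choice of members. Without that library the rule kept 107 genes, of which 86 were members. P2R+SA replicate 1 was the highest P2R+SA library in 84 members, against 59.8% of all genes. Between P2R+SA and SA libraries of the same number, the median difference over members was -0.11 for replicate 1, -1.49 for replicate 2 and -1.50 for replicate 3. P2R+SA was the lower library in 62 members for replicate 1, and in 105 members each for replicates 2 and 3. Whether libraries of the same number belong together was not established, so the numbers only name them here. What sets these libraries apart was not tested.

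The rule was also applied with the 4 libraries of 1 replicate number left out, and the genes it then chose were read in the libraries left out. With replicate 3 left out, 76 genes were chosen, and 70 of them (92.1%) were lower in all 4 steps in the left-out libraries, against 24.2% of all genes in the abundance window. With replicate 2 left out, 82 of 97 genes (84.5%) were lower in all 4 steps, against 24.0%. With replicate 1 left out, 63 of 151 genes (41.7%) were, against 8.18%. In that last case P2R+SA was lower than SA in 70 of the 151 genes (46.4%), against 53.2% of the window, with a median difference of 0.08. Among replicate 1 libraries, P2R was lower than CK in 150 of the 151 genes, SA lower than CK in 146 and P2R+SA lower than P2R in 130. Each of these readings rests on 1 library per group, and the 4 steps share those libraries. The genes are not replicates of a group, so the counts describe the libraries read.

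**Figure D4:**
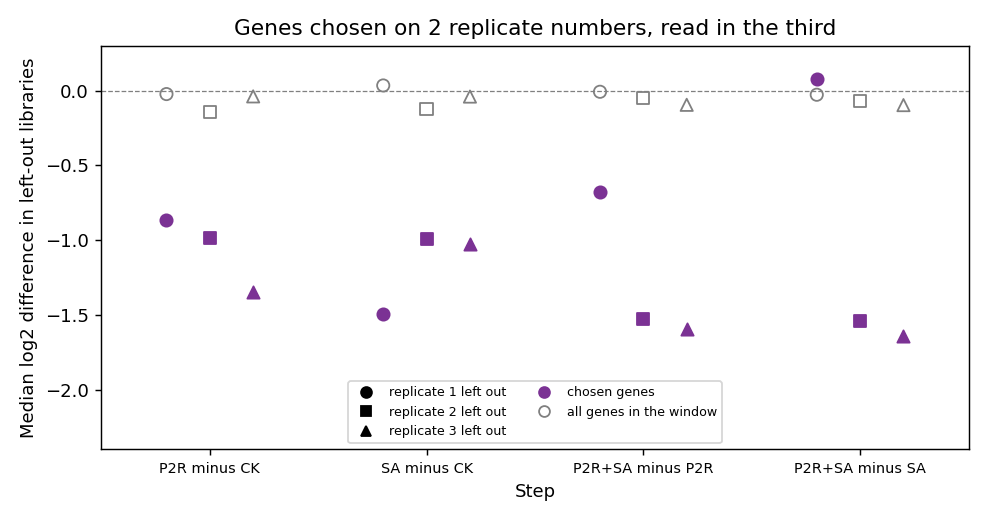
Median log2(FPKM + 1) difference in the 4 left-out libraries (y axis) for each step of the rule (x axis), for genes chosen on the other 8 libraries (filled) and for all genes in the abundance window (open). Symbols mark the replicate number left out; the chosen genes lie between -0.68 and -1.64 in every case except P2R+SA minus SA with replicate 1 left out, at 0.08.

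The spread between libraries was larger for the members than for the window. The median SD of log2(FPKM + 1) was 0.34 in P2R+SA, 0.18 in P2R, 0.63 in SA and 0.14 in CK for the members, against 0.21, 0.13, 0.22 and 0.09 for the 7216 genes of the abundance window. For the 218 genes lower with each compound alone but not in both further steps it was 0.34 in P2R+SA, 0.18 in P2R, 0.30 in SA and 0.12 in CK, so these genes spread as widely as the members in P2R+SA and P2R. For the 56 genes that met the mirrored limits, at least 0.5 higher in all 4 steps, it was 0.26, 0.17, 0.51 and 0.13 in the same groups.

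Coding length, which the rule did not use, had a median of 1371 bp in the members (range 240 to 4845 bp), 1278 bp in the 218 genes, 1095 bp in the 56 rising genes and 1365 bp in the abundance window. Coding lengths under 600 bp were found in 14.3% of members and 11.2% of the window. In CK the median member had 58.7 FPKM, the median of the 218 genes 33.1 FPKM, that of the 56 rising genes 9.89 FPKM and that of the window 31.3 FPKM. Unlike coding length, the level in CK enters the rule. Members had to fall from CK and rising genes to rise from it, within limits on the mean over all 12 libraries. The order of these CK levels is thus partly fixed by the choice of genes. By the mean over all 12 libraries, the median member lay slightly below the median gene of the window. The 10 members with the most fragments in CK held 48.9% of the members' fragments there. Of the 68 members whose next ID number belonged to a gene of the window, 3 (4.41%) were followed by another member, against 1.46% of the window that were members. No source used here says whether ID numbers follow position in the genome.

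Of the 323 genes in the window that were lower by at least 0.5 with each compound alone, the members were 32.5%. The limits passed through a dense region: 27 members lay within 0.1 of a limit, and 63 genes of the window outside the rule were within 0.1 of meeting it. The member nearest to a limit had differences of -0.58 for P2R minus CK, -0.94 for SA minus CK, -0.85 for P2R+SA minus P2R and -0.50 for P2R+SA minus SA. The nearest gene outside had -0.68, -2.42, -2.24 and -0.499 for the same steps. A further 7 genes met the 4 limits with a mean under 5 FPKM and 2 with a mean of 1000 FPKM or more. The means of the members ran from 5.33 to 915 FPKM.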

How the data were processed

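The authors deposited FPKM values. Tools listed in the submitters' processing notes are fastp, HISAT2, HTSeq and R 3.2.0, without their roles, and the genome build and annotation are not given in the sources at hand. Per the labels' protocols, TRIzol was used for RNA extraction and a VAHTS Universal V10 kit for the libraries. The series-wide table was used; the per-library files hold the same values to within 4.9e-06 FPKM. Columns were mapped to groups by sample titles.

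Whole fragments (tolerance 0.001) and coding lengths were recovered for all 10229 genes above 0 from ratios between libraries; 47 genes were at 0 throughout. All lengths came out as multiples of 3 by construction of the search, and with these lengths the FPKM values of each library added up to its recovered total. They served for depth, length and an alternative test.

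Genes reaching 1 FPKM in at least 3 libraries entered 1 model of log2(FPKM + 1) for all 12 libraries in limma 3.58.1 (R 4.3.3), with an intensity trend, no block and 8 residual degrees of freedom. The p-values thus reflect variation among these libraries only, part of which may be technical. The test was checked on simulated data with the same spread in every group and changed genes in P2R+SA only, read against CK. That check does not cover groups of unequal spread or the other comparisons. The members, the tests and the alternatives were chosen with earlier results of these data known. By the naming rule, the IDs are the member with the lowest P2R+SA minus CK difference among those called with groups apart, and the member with the highest CK mean. Lists by product could not be applied, and 0 were run. Replicates differed by more than sampling noise (chi-square per degree of freedom of at least 24.6).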

Additional observations from a re-analysis of the deposited data

Results flagged for a closer look

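The interaction passed limma's test for 2 members, so that in them the P2R+SA minus P2R difference was smaller than the SA minus CK difference. Of these calls, 1 or the other was lost with a pseudocount of 0.1, a replicate block, no filter on low values or limma-voom, and 1 was lost without any 1 of the P2R or CK libraries or P2R+SA replicate 3. The member with an interaction of 2.12 averaged 0.812 FPKM in P2R+SA, 2.055 FPKM in P2R and 2.313 FPKM in SA. At such levels log2(FPKM + 1) understates differences. Without SA replicate 1 and P2R+SA replicate 1, 2 members passed with a positive and 11 with a negative interaction, against 113 and 229 of all genes. All members were chosen on the differences that make up the interaction.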

How the results depend on the processing

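The number of members was 168 with limits of -0.4 and 31 with limits of -1, and 92 to 149 with 1 library left out. It was 88 after median-of-ratios scaling, all of them members, and 94 after quantile normalization, of which 88 were members. Without SA replicate 1 and P2R+SA replicate 1 it was 141, of which 85 were members. The count of members called in P2R+SA against CK was 103 to 105 with 1 library left out. It was 51 to 97 for P2R against CK, lowest without CK replicate 3, 56 to 85 for SA against CK and 55 to 95 for P2R+SA against P2R. For P2R+SA against SA it was 17 to 89: 89 without SA replicate 1, 32 and 29 without SA replicates 2 and 3, and 17 and 21 without P2R+SA replicates 2 and 3. In that comparison it was also 97 with array quality weights, 101 without SA replicate 1 and P2R+SA replicate 1, and 3 with the 6 compared libraries alone. The interaction count was 1 to 5 with 1 library left out, 13 without both libraries named above, and 1 with a pseudocount of 0.1, with no filter on low values and with limma-voom on the recovered fragments. Without SA replicate 1 the count of members with the larger difference in SA than in P2R was 46. Members apart in all 4 steps numbered 47 to 80 with 1 library left out and 90 without both, and this pair of results used alternatives chosen after seeing the data. The main model did not pair libraries by replicate number. Among same-numbered pairs, 3 of 18 had deviations correlated over 0.1, in a range of -0.32 to 0.54. These values do not settle whether libraries of the same number belong together. With a replicate block the counts were 105, 72, 73, 67 and 38 for P2R+SA against CK, P2R against CK, SA against CK, P2R+SA against P2R and P2R+SA against SA, and 1 for the interaction. Shares of all genes called are not given for these alternatives, apart from the interaction without both libraries. For the other counts of calls, a shift in the members cannot be told apart from one over all genes. The cause of these shifts was not tested.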
